A study of Mus musculus with 8 samples.

Results

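The genes described here encode the integrins, the laminins and a set of other basement membrane and linker proteins of the mouse ventricle. They are the rows of the deposited table whose names start with Itga, Itgb or Lam followed by a chain number or letter, both nidogen genes, and Hspg2, Agrn, Dag1 and Ilk. This gave 43 of the 13677 genes in the table. Of these, 9 are laminin chains, 4 are nidogens or basement membrane proteoglycans, 1 is dystroglycan, 24 are integrin subunits and 1 is integrin-linked kinase. The 4 others, Itgb1bp1, Itgb1bp2, Itgb3bp and Itgbl1, share the integrin name pattern without being integrin subunits.

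RNA sequencing of ventricular heart tissue from Mus musculus gave 8 libraries in 3 groups, named C (n = 3), KO (n = 2, numbered 1 and 3) and DKO (n = 3). The series sets Vhl-deficient ventricles against wild-type ones in mice whose Cre recombinase is driven by Wt1, which is active in the epicardium. The Vhl protein is the part of a ubiquitin ligase that recognises hypoxia-inducible factors. The labels spell out none of the 3 abbreviations, so the wild-type status of C, the genotype of KO and the second change in DKO are not given beyond the group names. No strain or age is given, and nothing says that libraries of a group came from separate animals. P-values therefore measure only the spread between these libraries, which may be technical.

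Basement membranes are sheets of matrix that wrap each cardiomyocyte and underlie the endothelium of every vessel. Laminins, trimers of an alpha, a beta and a gamma chain, form a network that nidogens and the proteoglycans perlecan and agrin link to collagen IV. Cells hold on to it through integrins, which are heterodimers of an alpha and a beta subunit, and through dystroglycan, which joins it to dystrophin. In cardiomyocytes the integrin dimers sit at the costameres, where they pass force between the sarcomere and the matrix.

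Levels are given as the deposited normalised signal, which is a read count per unit of library size, scaled for library composition, as mean ± SD. Tests were run with limma on log2(signal + 1) over 13544 genes, with Benjamini-Hochberg adjustment and a threshold of 0.05, and changes are given as the log2 difference ± SE. Fold values are this difference put back on the linear scale, so they refer to signal + 1 and understate changes of low genes. A level per kb is the signal over the length of the longest annotated transcript, and levels of different genes are compared on that scale only. Libraries held 15028176 to 21202385 reads, and a gene with 0 reads could still have a signal of up to 0.104 to 0.283 (3 reads, counting error only). The library DKO 2 differed from the rest: its 10 most abundant genes took 51.5% of the reads, where those of the other 7 libraries took 21.96% to 38.1%, and 41.6% were mitochondrial. Mitochondrial reads made up 23.1% to 29.0% of the libraries in C, 16.2% and 17.4% in KO, and 22.9% to 41.6% in DKO. Defining cardiomyocyte genes were high in every library, with a summed signal of 8 genes of 60567 to 63714 in C, 36398 and 40971 in KO, and 36173 to 59650 in DKO. Skeletal muscle genes, which ventricle should lack, summed to 62.4 to 433 in C, 1.35 and 1.496 in KO, and 6.28 to 15.5 in DKO. In tissue RNA, fewer cells of a type and less RNA per cell cannot be told apart.

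In KO against C, 11 of the 43 genes rose and 2 fell, which is 30.2% of them beside 13.9% of all tested genes (6.9% rose and 7.01% fell). Among those that rose were Itga9, Itgb3, Lamc1, Itgb4, Itga5, Itgax, Itgbl1, Itga2, Itgb1 and Lamb1, and those that fell were Itga2b and Itgb1bp2. Itga2 and Itgax reached a signal of 1 only in the KO libraries and in DKO 1. They therefore passed the filter on low values (at least 1 in at least 2 libraries) only through KO, where they were high. Both are among the 11 that rose, and their calls are not independent of that filter. The median log2 difference of the 43 was 0.20, against 0.01 for all tested genes. In 18 of the 43 both KO libraries lay above all 3 C libraries, beside 27.5% of tested genes, and in 8 both lay below, beside 26.7%. The count of 13 fell to 6 without C 1, 8 without C 2, 7 without C 3, 4 without KO 1 and 3 without KO 3, while that over all tested genes fell from 1883 to 899, 1048, 985, 783 and 449 in the same order. Fitting only C and KO gave 20 of the 43 and 3606 of all tested genes.

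In DKO against C, 0 of the 43 genes passed the threshold in limma, and 3 were under an unadjusted p of 0.05; edgeR and DESeq2 on the recovered reads also called 0. Of all tested genes 0.155% passed (0.0738% higher and 0.0812% lower), and 1151 of 13544 were under an unadjusted p of 0.05. All 3 DKO libraries lay above all C libraries in 3 of the 43 genes, beside 6.5% of tested genes, and below them in 0, beside 7.25%.

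In DKO against KO, 7 of the 43 were lower in DKO and 3 were higher, which is 23.3% beside 11.8% of all tested genes (5.73% lower and 6.08% higher). The DKO libraries lay above both KO libraries in 9 of the 43, beside 20.5% of tested genes, and below them in 15, beside 21.1%. Among the lower genes were Itga9, Itgb3, Lamc1, Itgb1, Itga5 and Dag1, and the higher ones were Itga2b, Lama5 and Itgb1bp2. The count of 10 fell to 2 without KO 1 and to 3 without KO 3, to 5 when only DKO and KO were fitted, and was 10 without DKO 2. Over all tested genes the count of 1599 became 603, 334, 730 and 1991 in the same order. The comparisons share libraries, so each one's values are given side by side below.

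**Figure D1:**
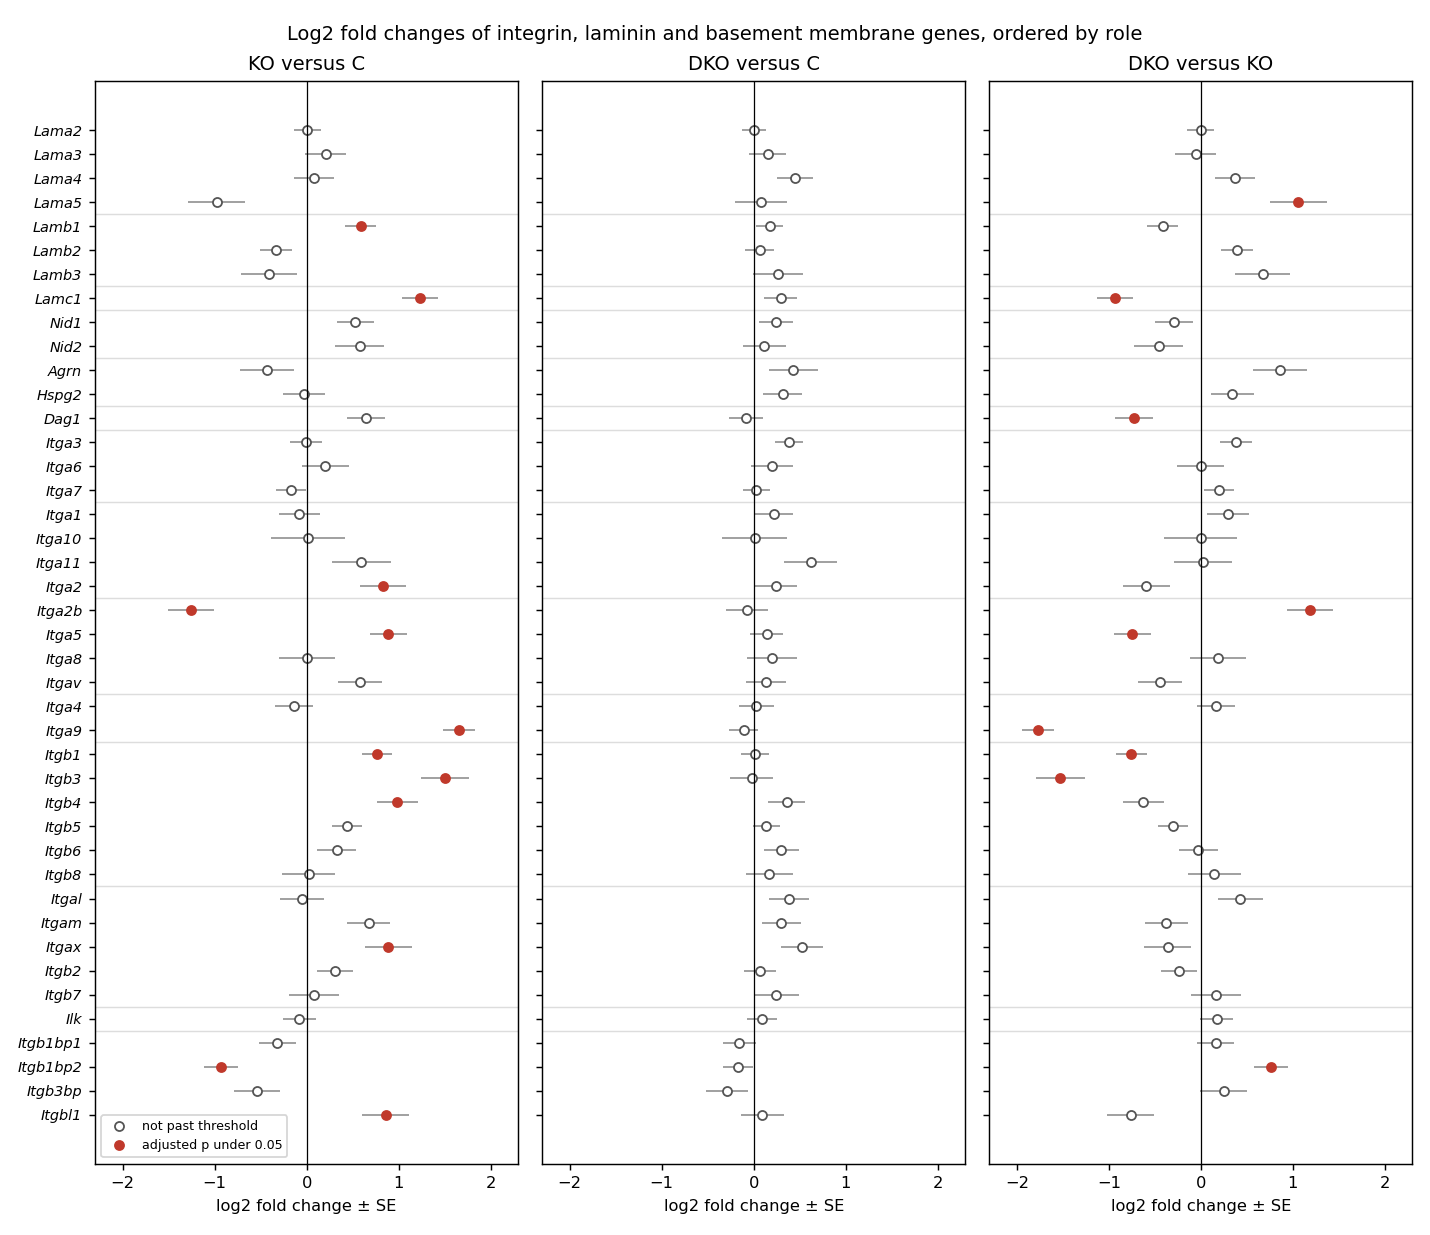
Log2 fold change ± SE (x axis) of 42 of the 43 genes (rows, grouped by role) in KO versus C, DKO versus C and DKO versus KO. Filled points passed an adjusted p of 0.05, and they number 12, 0 and 9 in the 3 panels.

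Among the laminin alpha chains, which carry the cell-binding domains, Lama5 had the highest level per kb in C, at 23.8 ± 6.37, followed by Lama4 at 9.53 ± 1.70, Lama2 at 5.39 ± 0.187 and Lama3 at 0.386 ± 0.0800. Lama5, the laminin alpha 5 chain of vascular basement membranes, had a signal of 221, 238 and 354 in C, 121 and 148 in KO, and 172, 361 and 353 in DKO (chromosome 2, 180176373 to 180225859, GRCm38). Both KO libraries were below all others, and C and DKO overlapped. KO differed from C by -0.98 ± 0.31, which missed the threshold (limma, adjusted p = 0.0560), while Lama5 was higher in DKO than in KO by 1.06 ± 0.31 (limma, adjusted p = 0.0464). In KO against C it passed without DKO 1 (limma, adjusted p = 0.0139), DKO 2 (0.0347) or DKO 3 (0.0435). The second comparison did not pass without C 1 (limma, adjusted p = 0.0630), C 2 (0.0694), C 3 (0.0523), DKO 2 (0.0887), DKO 3 (0.0999), KO 1 (0.238) or KO 3 (0.165), nor with a pseudocount of 4 (0.0501), quantile normalization (0.0714), no variance trend (0.0595) or only DKO and KO fitted (0.0883).

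Lama2, the alpha chain of the laminin around muscle fibres, had a signal of 49.9 to 53.4 in C, 51.3 and 52.9 in KO, and 48.3 to 56.1 in DKO. KO differed from C by 0.01 ± 0.14 (limma, adjusted p = 0.981). Lama4, a chain of endothelial basement membranes, ranged from 49.6 to 69.2 in C, from 57.3 to 63.6 in KO and from 62.4 to 105 in DKO, with the highest value in DKO 2. Lama3, a chain of epithelial laminin, stayed between 3.22 and 5.74 in all 8 libraries.

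Of the summed alpha chain signal per kb, Lama5 took 60.2% ± 7.67 (C), 42.6% ± 4.54 (KO) and 56.4% ± 10.4 (DKO). In the same order, the share of Lama4 was 24.7% ± 5.87, 36.1% ± 3.86 and 29.95% ± 7.33. In KO 1 the shares of Lama5 and Lama4 were 39.4% and 38.9%, so the pair stood nearly level there, while Lama5 led by a wider margin in C 3, at 68.1% against 19.6%. The library DKO 1, with a Lama5 share of 45.2%, lay within the KO range and not with the other DKO libraries.

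Among the beta chains, Lamb2, the beta chain of adult muscle and vessel laminin, was at 62.5 ± 3.55 per kb in C, against 8.49 ± 0.930 for Lamb1 and 2.22 ± 0.116 for Lamb3. The signal of Lamb1, the beta chain that prevails in embryonic laminin, was 55.1, 47.5 and 44.8 in C, 75.8 and 72.3 in KO, and 55.8, 62.6 and 48.3 in DKO (chromosome 12, 31265234 to 31329644). Both KO libraries were above the other 6, and C and DKO overlapped. Lamb1 rose by 0.59 ± 0.17 in KO against C (limma, adjusted p = 0.0348), and DKO was below KO by 0.42 ± 0.17 without passing (limma, adjusted p = 0.122). The call in KO against C was lost without C 1 (limma, adjusted p = 0.0610), C 2 (0.115), C 3 (0.129), KO 1 (0.171) or KO 3 (0.152). Lamb2 had a signal of 329.7 to 368 in C, 252 and 310.0 in KO, and 362 to 372 in DKO, so KO lay below both other groups, with a difference from C of -0.33 ± 0.18 (limma, adjusted p = 0.238). The share of Lamb1 in the beta chain signal per kb was 11.6% ± 1.72 for C, 20.05% ± 2.93 for KO and 12.3% ± 1.39 for DKO.

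Lamc1, the gamma chain of nearly all laminins outside epithelia, was the laminin gene that rose most in KO (chromosome 1, 153218922 to 153332786). Its signal was 63.4, 49.3 and 61.4 in C, 138 and 135 in KO, and 89.2, 69.1 and 57.5 in DKO. No library of another group reached the KO values. The rise in KO against C was 1.23 ± 0.20 (2.34-fold; limma, adjusted p = 0.00255), and it passed in each of the 19 alternatives tried. DKO was lower than KO by 0.94 ± 0.20 (limma, adjusted p = 0.0112), a call lost without KO 1 (limma, adjusted p = 0.0778) or KO 3 (0.0924). In DKO against C the difference was 0.29 ± 0.18 (limma, adjusted p = 0.661).

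**Figure D2:**
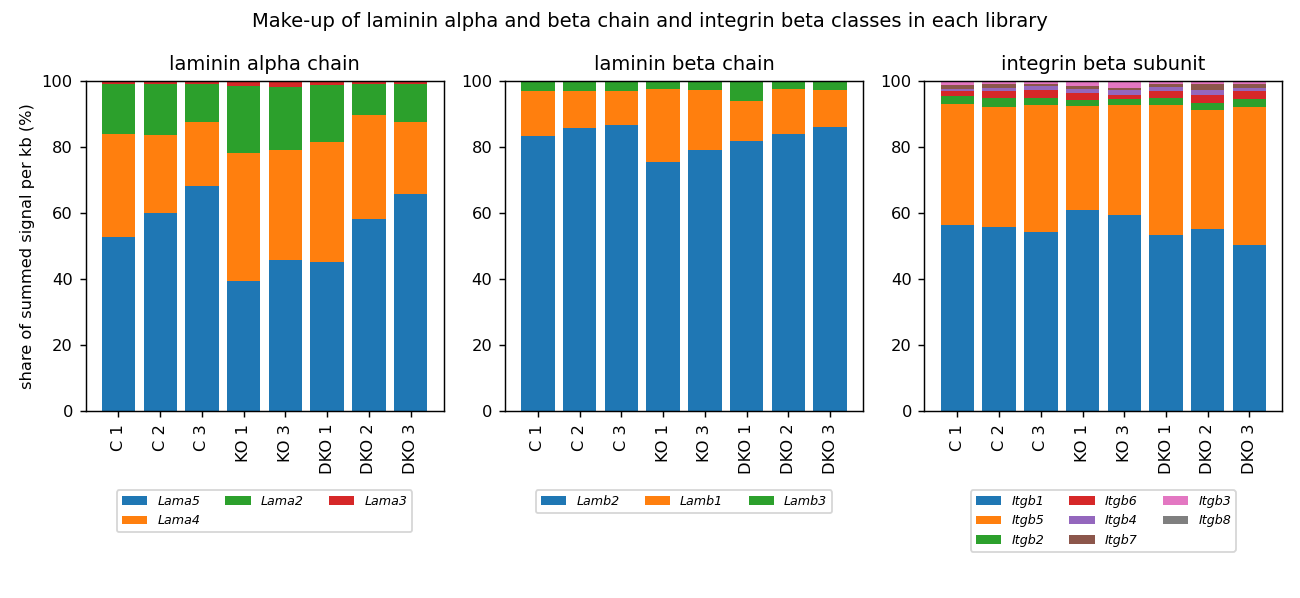
Share of the summed signal per kb (y axis, %) that each laminin alpha chain, laminin beta chain and integrin beta subunit takes within its class in each of the 8 libraries (bars). Lama5 takes 39.4% to 45.8% of the alpha chain signal in KO, Lamb1 takes more of the beta chain signal in KO than in C, and Itgb1 leads the integrin beta subunits in every library.

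The nidogens, which bridge laminin and collagen IV, did not pass. Nid1 had a signal of 68.7, 55.8 and 55.4 in C, 82.5 and 91.0 in KO, and 81.8, 81.1 and 53.1 in DKO, a difference between KO and C of 0.53 ± 0.20 (limma, adjusted p = 0.105). Nid2 had 13.4 to 18.6 in C, 20.7 and 27.4 in KO, and 10.98 to 22.3 in DKO (0.58 ± 0.26; limma, adjusted p = 0.171). For both genes the KO libraries were above all C libraries, and DKO spanned the range of C.

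Hspg2, the gene of perlecan, had a signal of 506, 444 and 567 in C, 459 and 530.0 in KO, and 531, 819.9 and 562 in DKO, and C and KO overlapped. Agrn, the gene of agrin, had 112, 101 and 172 in C, 89.7 and 95.7 in KO, and 110.4, 231 and 188 in DKO. Its difference between DKO and KO was 0.86 ± 0.29 (limma, adjusted p = 0.0791), and that between KO and C was -0.43 ± 0.29 (limma, adjusted p = 0.363). Lama5, Agrn and Hspg2 were each highest in DKO 2, which also had most mitochondrial reads, and C 3 and DKO 3 came next for all 3 genes. C 3 and DKO 3 held 29.0% and 29.9% mitochondrial reads and were the next in that order too. These 3 genes were picked out with their values known. Other genes of the set did not follow this order: Nid1 and Nid2 were lowest in DKO 3 (53.1 and 10.98), with C 3 next (55.4 and 13.4). The part of the mitochondrial read share in these differences was not tested.

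**Figure D3:**
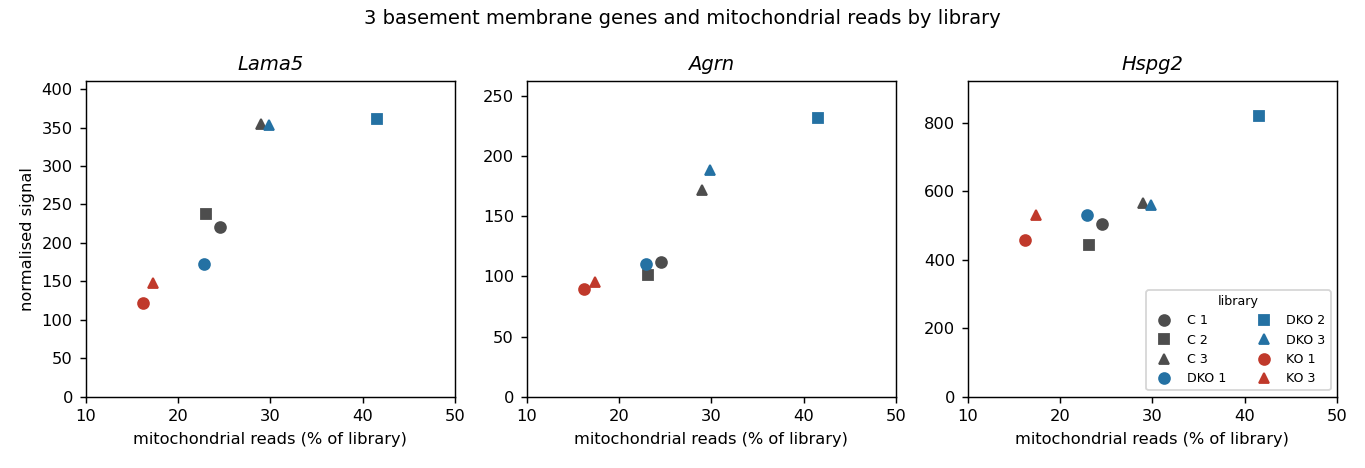
Normalised signal (y axis) of Lama5, Agrn and Hspg2 against mitochondrial reads as a percentage of the library (x axis), one point per library, with colour for group and shape for replicate number. DKO 2, at 41.6%, has the highest signal of all 3 genes, and the 2 KO libraries, at 16.2% and 17.4%, have the lowest signal of Lama5 and Agrn. The 3 genes were picked with their values known, and Nid1 and Nid2, not drawn, do not follow this order.

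Dag1 encodes dystroglycan, the laminin receptor that is cut into an outer and a membrane-spanning subunit (chromosome 9, 108204634 to 108263958). Its signal was 134, 156 and 126 in C, 185 and 254 in KO, and 143, 106 and 146 in DKO. Both KO libraries lay above the other 6. Dag1 was lower in DKO than in KO by 0.73 ± 0.20 (limma, adjusted p = 0.0382), and the difference of 0.65 ± 0.20 between KO and C missed the threshold (limma, adjusted p = 0.0546). The first was not called without C 1 (limma, adjusted p = 0.0679), C 2 (0.0621), C 3 (0.0625), KO 1 (0.0551) or KO 3 (0.321), and the second was called without DKO 2 (0.0155) or DKO 3 (0.0449). The first was also lost with median centring (limma, adjusted p = 0.0564), with the length and GC trend removed (0.0575), with the replicate block (0.0810), with no variance trend (0.05005) and with only DKO and KO fitted (0.121).

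Integrin alpha subunits decide which ligand a dimer binds. In C the highest level per kb among them was that of Itga7, at 36.7 ± 2.77, followed by Itga5 at 11.6 ± 0.907 and Itga6 at 11.6 ± 2.62, which did not differ beyond their spread. Next were Itga1 at 3.82 ± 0.599 and Itga9 at 3.50 ± 0.217, which overlapped too. In KO the order per kb was Itga7 at 32.5 ± 0.340, Itga5 at 21.5 ± 1.04, Itga6 at 13.3 ± 1.85 and Itga9 at 11.3 ± 0.0999. Some of this order depended on the length used. Per length of the longest coding sequence, Itga9 took 18.6% of the summed alpha signal in KO and Itga6 took 12.7%. By that length Itga1 took 10.98% ± 1.49 in C and Itga9 took 7.36% ± 0.605, without overlap.

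The laminin-binding subunits did not pass in any comparison. Itga7, the laminin receptor subunit of muscle, had a signal of 136, 158 and 149 in C, 132 and 129.9 in KO, and 152, 134 and 166 in DKO. Both KO libraries were the lowest of the 8, by a difference from C of -0.17 ± 0.16 (limma, adjusted p = 0.531). Its share of the summed alpha signal per kb was 48.6% ± 4.17 in C and 35.6% ± 0.426 in KO, where other subunits rose. Itga6, a laminin receptor subunit of endothelium and epithelium, ranged from 43.5 to 63.2 in C, from 51.6 to 62.9 in KO and from 39.0 to 73.2 in DKO. Itga3, which binds laminins of epithelial type, had 10.46 to 12.9 in C, 10.9 and 12.8 in KO, and 13.9 to 17.0 in DKO. All 3 DKO libraries of Itga3 were above C, by 0.38 ± 0.15, which had the smallest adjusted p of the 43 genes in that comparison (limma, adjusted p = 0.579).

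Of the collagen-binding subunits, Itga1 had the highest level, with a signal of 48.6, 35.5 and 41.4 in C, 44.3 and 34.8 in KO, and 53.0, 60.5 and 35.6 in DKO, so that all groups overlapped. Itga2, the collagen receptor subunit of platelets and epithelia, was near the limit of detection (chromosome 13, 114833081 to 114932100). Its signal was 0.337, 0.331 and 0.772 in C, 1.87 and 1.37 in KO, and 1.03, 0.708 and 0.490 in DKO. It rose by 0.83 ± 0.25 in KO against C (limma, adjusted p = 0.0494), just inside the threshold, and only KO stood apart from the rest. Itga2 entered the test only through its high values in KO, so this p-value is not independent of them. The call was lost without C 1 (limma, adjusted p = 0.142), C 2 (0.135), C 3 (0.0567), KO 1 (0.271) or KO 3 (0.148), and with a pseudocount of 0.5 (0.0529). At this level the size of the difference depended on the scale, being 0.33 with a pseudocount of 4 and 1.83 in DESeq2 on the recovered reads. Itga10 and Itga11, the collagen receptor subunits of cartilage and fibroblasts, were between 0.994 and 6.75 in all libraries and did not pass.

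Itga5, which with Itgb1 forms the main fibronectin receptor, was the RGD-binding subunit with the highest level (chromosome 15, 103344286 to 103366763). Its signal was 49.3, 48.2 and 55.6 in C, 91.9 and 98.3 in KO, and 43.0, 73.4 and 56.4 in DKO. KO lay above the other 6 libraries, of which DKO 2 came closest. Itga5 rose by 0.89 ± 0.20 in KO against C (1.85-fold; limma, adjusted p = 0.0143) and was lower in DKO than in KO by 0.75 ± 0.20 (limma, adjusted p = 0.0341). The first call was lost without C 1 (limma, adjusted p = 0.0559), C 2 (0.0551), KO 1 (0.0705) or KO 3 (0.119). The second was lost without C 1 (limma, adjusted p = 0.0585), C 2 (0.0594), C 3 (0.0549), DKO 1 (0.0679), DKO 3 (0.0532), KO 1 (0.127) or KO 3 (0.211), with no variance trend (0.0501) and with only DKO and KO fitted (0.104). Itgav, a subunit shared by several vitronectin and latent TGF-beta receptors, had 9.05 to 10.1 in C, 19.0 and 11.5 in KO, and 8.82 to 14.6 in DKO (0.58 ± 0.24 in KO against C; limma, adjusted p = 0.132). Itga8, a subunit of smooth muscle and mesenchyme, stayed between 1.58 and 4.99.

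On the log2(signal + 1) scale of the main test, Itga9 changed most among the 43 genes. This rank depends on the scale: in DESeq2 on the recovered reads, Itgax and Itga2 differed by 2.25 and 1.83 in KO against C. Itga9 encodes the alpha 9 subunit, which pairs with Itgb1 and binds tenascin-C, osteopontin and other ligands (ENSMUSG00000039115, chromosome 9, 118606690 to 118901003). The signal of Itga9 was 23.2, 26.2 and 24.3 in C, 79.1 and 80.1 in KO, and 21.1, 19.3 and 28.6 in DKO. The KO libraries agreed within 1 unit and lay far above the other 6, while C and DKO overlapped. Itga9 rose by 1.66 ± 0.18 in KO against C (3.15-fold; limma, adjusted p = 0.000349) and was lower in DKO than in KO by 1.77 ± 0.18 (limma, adjusted p = 0.000243). Both calls were kept in each of the 19 alternatives, the range of the KO against C difference being 1.51 to 1.70. Its share of the summed alpha signal per kb went from 4.64% ± 0.333 in C to 12.4% ± 0.387 in KO, and was 3.999% ± 0.969 in DKO. Itga4, the structurally closest subunit and a fibronectin and Vcam1 receptor of leukocytes, had 1.99 to 3.04 in C, 2.03 and 2.20 in KO, and 2.22 to 2.68 in DKO, with no difference past the threshold.

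Itga2b, the platelet and megakaryocyte subunit that pairs with Itgb3 as the fibrinogen receptor, moved the other way (chromosome 11, 102453297 to 102470122). Its signal was 7.07, 5.27 and 4.29 in C, 1.63 and 1.75 in KO, and 3.75, 7.03 and 5.04 in DKO. Both KO libraries lay below the other 6. It fell by 1.26 ± 0.25 in KO against C (limma, adjusted p = 0.00753) and was higher in DKO than in KO by 1.19 ± 0.25 (limma, adjusted p = 0.0117). These calls were lost without KO 1 (limma, adjusted p = 0.0587 and 0.0822) or KO 3 (0.0665 and 0.0936), and with a pseudocount of 4 the differences were -0.74 and 0.69. Of 5 platelet genes in the table, Ppbp and Gp9 also fell in KO against C, and Ppbp was higher in DKO than in KO. Ppbp had 4.48 to 7.99 in C, 0.571 and 0.884 in KO, and 1.93 to 5.90 in DKO, and the 5 genes summed to 21.0 to 26.1 in C, 10.8 and 18.5 in KO, and 16.6 to 27.5 in DKO. None of the 5 was at 0 in all libraries of a group, and Pf4 overlapped between all groups, at 8.996 to 17.3. The part of platelet RNA in the Itga2b values was not tested.

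Among the integrin beta subunits, Itgb1, the partner of most alpha subunits above, had the highest level per kb in C, at 41.6 ± 3.88, followed by Itgb5 at 28.03 ± 1.27, Itgb2 at 1.72 ± 0.361 and Itgb6 at 1.53 ± 0.248. Itgb2 and Itgb6 did not differ beyond their spread, and Itgb8, at 0.101 ± 0.0482, was the lowest. Itgb1 (chromosome 8, 128685654 to 128733200) had a signal of 169.5, 165 and 142 in C, 269 and 271 in KO, and 179, 155 and 147 in DKO. KO stood above the other 6 libraries, and C and DKO overlapped. Itgb1 rose by 0.77 ± 0.17 in KO against C (1.70-fold; limma, adjusted p = 0.0116) and was lower in DKO than in KO by 0.75 ± 0.17 (limma, adjusted p = 0.0145). The first call was lost without C 3 (limma, adjusted p = 0.0609), KO 1 (0.0698) or KO 3 (0.0922), and the second without KO 1 (0.0832) or KO 3 (0.110). Its share of the beta signal per kb was higher in KO, at 60.2% ± 1.14, than in C, at 55.38% (54.1% to 56.2%), or DKO, at 52.9% ± 2.39.

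Itgb3, which pairs with Itgav in vessels and with Itga2b in platelets, rose while Itga2b fell (chromosome 11, 104608000 to 104670476). Its signal was 5.54, 3.41 and 2.38 in C, 10.1 and 14.4 in KO, and 3.93, 3.54 and 3.14 in DKO. KO was above all other libraries, and DKO lay inside the range of C. It rose by 1.504 ± 0.27 in KO against C (2.84-fold; limma, adjusted p = 0.00419) and was lower in DKO than in KO by 1.53 ± 0.27 (limma, adjusted p = 0.00453). Both calls were lost without KO 3 (limma, adjusted p = 0.0745 and 0.0837).

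Itgb4, the partner of Itga6 in hemidesmosomes, had a signal of 3.34, 4.43 and 5.53 in C, 8.48 and 10.8 in KO, and 6.46, 6.65 and 4.70 in DKO (chromosome 11, 115974709 to 116008412). It rose by 0.98 ± 0.22 in KO against C (limma, adjusted p = 0.0139), and the call was lost without C 1 (limma, adjusted p = 0.0578) or KO 3 (0.154). The difference between DKO and KO was -0.62 ± 0.22 (limma, adjusted p = 0.0927). Itgb4 shares 537 exonic bases with a gene on the other strand that was not in the table. With Lama3, which did not pass, it belongs to the epithelial members of the set. Of the epicardial and mesothelial genes, Krt19 and Wt1 were higher in KO. Krt19 had 0.0306 to 0.392 in C, 5.53 and 9.41 in KO, and 0.259 to 0.712 in DKO, and Wt1 had 2.42 to 4.73, 7.02 and 7.62, and 3.601 to 6.46. The 5 epicardial and mesothelial genes in the table summed to 6.15 to 11.1 in C, 16.7 and 23.4 in KO, and 7.98 to 13.4 in DKO. Of the 5, only Krt19 and Wt1 passed in KO against C (40%, beside 13.9% of all tested genes). Their part in the Itgb4 values was not tested.

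Itgb5, a vitronectin receptor subunit, had 95.5, 93.1 and 87.4 in C, 119 and 131 in KO, and 113, 87.6 and 105 in DKO, a difference of 0.44 ± 0.16 between KO and C (limma, adjusted p = 0.0946). Itgb6, of epithelia, and Itgb8, a subunit of latent TGF-beta receptors, overlapped between KO and C. Itgb6 stood at 9.54, 8.64 and 9.42 in DKO, above the 5.97 to 8.12 of C (0.30 ± 0.19; limma, adjusted p = 0.680).

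**Figure D4:**
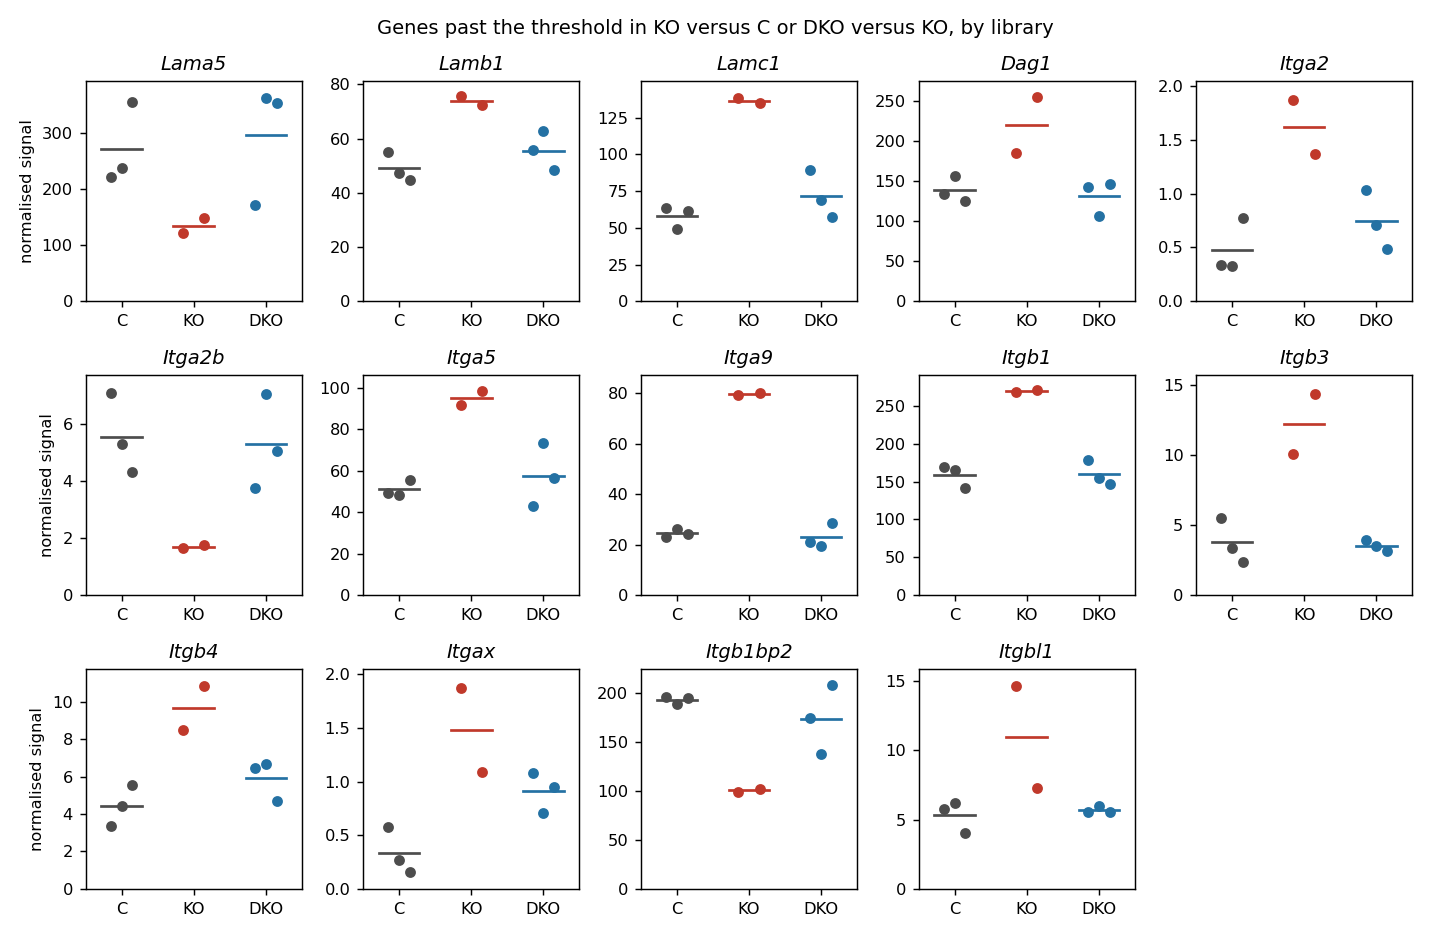
Normalised signal (y axis, from 0) of 14 of the 15 genes past the threshold in KO versus C or DKO versus KO, in each library (points) with the group mean (line). Both KO libraries of Itga9, at 79.1 and 80.1, lie above the other 6, at 19.3 to 28.6, while Itga2b and Itgb1bp2 have their lowest values in KO.

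Promoter sequence is shown for the integrin genes past the threshold in both KO against C and DKO against KO that had an entry in the RefSeq table (GRCm38.p6), since these changed in both. Each run is the 250 bases before an annotated start, 5′ to 3′ on the strand of the gene, and capitals mark ACGTG or GCGTG, the core letters to which hypoxia-inducible factors bind, searched on both strands.
Itga9, chr9:118711442-118711691, plus strand: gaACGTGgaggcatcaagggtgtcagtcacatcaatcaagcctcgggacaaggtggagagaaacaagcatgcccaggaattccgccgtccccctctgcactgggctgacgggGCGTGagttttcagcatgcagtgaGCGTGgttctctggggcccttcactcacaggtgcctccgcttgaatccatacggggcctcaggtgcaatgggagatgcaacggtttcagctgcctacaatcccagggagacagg
Itgb1, chr8:128685404-128685653, plus strand: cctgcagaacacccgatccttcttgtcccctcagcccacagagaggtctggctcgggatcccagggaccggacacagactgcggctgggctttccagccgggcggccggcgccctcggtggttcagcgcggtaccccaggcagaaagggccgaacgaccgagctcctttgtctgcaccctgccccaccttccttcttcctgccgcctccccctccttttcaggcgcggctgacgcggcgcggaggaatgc
Itga5, chr15:103366792-103367041, minus strand: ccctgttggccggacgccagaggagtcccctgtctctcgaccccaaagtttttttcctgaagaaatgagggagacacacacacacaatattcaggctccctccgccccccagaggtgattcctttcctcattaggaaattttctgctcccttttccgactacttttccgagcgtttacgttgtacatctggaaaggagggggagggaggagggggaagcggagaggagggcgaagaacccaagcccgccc
Itga2b, chr11:102469884-102470133, minus strand: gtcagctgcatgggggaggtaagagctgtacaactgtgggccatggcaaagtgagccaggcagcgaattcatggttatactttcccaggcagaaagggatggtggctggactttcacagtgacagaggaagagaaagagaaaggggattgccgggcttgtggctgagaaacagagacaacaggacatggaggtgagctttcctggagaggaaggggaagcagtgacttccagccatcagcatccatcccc
The Itga9 run held 3 matches, ACGTG from 248 to 244 bases before the start and GCGTG from 138 to 134 and from 114 to 110 bases before it, none of them part of a CACGTG E-box. This start lies inside the gene, which begins at 118606690 in GENCODE, so the run is not the promoter of the longest transcript. The Itga2b run too lies almost wholly inside its gene, which on the minus strand begins at 102470122. Itgb1, which rose in KO, and Itga2b, which fell, both had 0 matches in these windows, as did Itga5. Of all 32851 promoter windows of this length in the table, 38.6% held at least 1 match and 6.58% at least 3. Only 31 of the 43 genes had a window, and 13 of their 37 windows (35.1%) held at least 1. A match describes letters in the window and not binding.

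The leukocyte subunits were low. Itgb2, the shared beta subunit of the leukocyte integrins, had the highest level per kb of the 5, at 1.72 ± 0.361 in C, with a signal of 5.23, 6.12 and 3.99 in C, 6.91 and 6.08 in KO, and 5.58, 4.95 and 5.50 in DKO. All groups of Itgb2 overlapped with C. Itgax, the CD11c subunit of dendritic cells and some macrophages, had 0.582, 0.271 and 0.154 in C, 1.87 and 1.09 in KO, and 1.08, 0.708 and 0.951 in DKO (chromosome 7, 128129547 to 128150657). KO and DKO both lay above C, and Itgax rose by 0.89 ± 0.26 in KO (limma, adjusted p = 0.0383), whereas the 0.53 ± 0.23 of DKO did not pass (limma, adjusted p = 0.585). Itgax too entered the test only through its high values in KO, so the KO p-value is not independent of them. The KO call was lost without C 1 (limma, adjusted p = 0.0561), C 2 (0.101), C 3 (0.117), KO 1 (0.277) or KO 3 (0.0929). The difference was 0.34 with a pseudocount of 4 and 2.25 in DESeq2 on the recovered reads.

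Itgam, the CD11b subunit of macrophages and neutrophils, had 2.36 to 3.18 in C, 4.15 and 5.63 in KO, and 2.46 to 4.29 in DKO (0.67 ± 0.24 in KO against C; limma, adjusted p = 0.0770), and it shares 3450 exonic bases with an overlapping gene of the same strand. Itgal and Itgb7, of lymphocytes, were between 1.08 and 3.44 and did not pass. The 8 macrophage genes summed to 208.5 to 226 in C, 296 and 303 in KO, and 222 to 292 in DKO, with C1qb and Cd14 past the threshold in KO against C, and none was at 0. The part of macrophage number in the Itgax and Itgam values was not tested.

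Ilk, the pseudokinase that ties the tail of beta integrins to actin, did not pass in any comparison, with 80.5, 76.9 and 87.8 in C, 76.0 and 78.5 in KO, and 75.2, 111 and 79.2 in DKO. KO differed from C by -0.08 ± 0.18 (limma, adjusted p = 0.817). Its exons share 2106 bases with Taf10 on the other strand, and whether counting used strand is not given in the sources used here.

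Itgb1bp2 encodes melusin, a chaperone-like protein of striated muscle that binds the tail of integrin beta 1 (chromosome X, 101449088 to 101453541). It had the highest level per kb of the 43 genes in C, at 147 ± 2.85. Its signal was 196, 189 and 194 in C, 98.6 and 102 in KO, and 174, 138 and 208 in DKO. Both KO libraries lay below the other 6, and the lowest of the rest was DKO 2. It fell by 0.93 ± 0.19 in KO against C (limma, adjusted p = 0.00746), while Itgb1 rose, and was higher in DKO than in KO by 0.76 ± 0.19 (limma, adjusted p = 0.0219). These calls were lost without KO 1 (limma, adjusted p = 0.0583 and 0.124) or KO 3 (0.0648 and 0.132). Of 8 cardiomyocyte genes 1 passed in KO against C (12.5%, beside 13.9% of all tested genes), which was Tnni3, at 2549 and 2560.0 in KO beside 6036 to 6785 in C, and the summed cardiomyocyte signal given above was lower in both KO libraries than in every C library. The 8 skeletal muscle genes all fell in KO against C, and Myh2 and Myh4 had 0 reads in both KO libraries. The part of either in the Itgb1bp2 values was not tested.

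Itgbl1 encodes a secreted protein with integrin-like repeats (chromosome 14, 123659971 to 123975618). It had 5.79, 6.24 and 4.05 in C, 14.6 and 7.30 in KO, and 5.58, 5.99 and 5.56 in DKO, so KO 1 stood well above KO 3. It rose by 0.86 ± 0.26 in KO against C (limma, adjusted p = 0.0451), a call lost without C 1 (limma, adjusted p = 0.0870), C 2 (0.0656), C 3 (0.148) or KO 1 (0.422). The difference was 0.402 without KO 1 and 1.31 without KO 3. Itgb1bp1, an inhibitor of integrin activation, had 23.1 to 25.2 in C, 22.7 and 16.1 in KO, and 16.9 to 25.7 in DKO. Itgb3bp, a centromere protein, was between 1.06 and 3.47, and neither passed.

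Summed over the 24 integrin subunits, the signal was 609 to 654 in C, 886 and 891 in KO, and 655 to 703 in DKO. KO stood above both other groups, while the lowest DKO library lay just above the highest in C. Over the 13 laminins, nidogens and proteoglycans the sum was 1431 to 1761 in C, 1378 and 1541 in KO, and 1583 to 2189 in DKO, and C and KO overlapped.

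The proteins that work with this set were read from 4 lists. These lists were written with earlier results of these data known, so their shares describe the listed genes and are no independent support. Of 33 focal adhesion adaptors and kinases 11 rose and 0 fell in KO against C, of 28 other basement membrane genes 11 rose and 1 fell, of 24 integrin ligands 12 rose and 0 fell, and of 30 genes of the dystrophin complex and dystroglycan glycosylation 4 rose and 1 fell. The shares called were 33.3%, 42.9%, 50% and 16.7%, beside 13.9% of all tested genes (6.9% higher and 7.01% lower), so that of the dystrophin list was near the background. Their medians were 0.30, 0.55, 0.55 and 0.14, against 0.01 for all tested genes. In DKO against KO the counts of higher and lower genes were 0 and 7, 2 and 11, 1 and 6, and 0 and 4, with medians of -0.18, -0.32, -0.22 and -0.10, against 0.01 for all tested genes. These are 21.2%, 46.4%, 29.2% and 13.3% of the lists, beside 11.8% of all tested genes (6.08% higher and 5.73% lower), and the dystrophin list was again near the background. In DKO against C limma called 0 genes of any list, where 0.155% of all tested genes passed.

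These counts fell without single libraries, and most of those over all tested genes fell too. In DKO against KO, the 1599 calls over all tested genes became 1171 without C 1, 1123 without C 2 and 1190 without C 3. Without DKO 3 they did not fall, at 1606. In KO against C the 11 focal adhesion calls became 3 without C 1, 5 without C 2 or C 3, 4 without KO 1 and 1 without KO 3, and the 12 basement membrane calls became 5 without KO 1 and 6 without KO 3. The 12 ligand calls became 6 without KO 1, and the 5 dystrophin calls became 2 without C 1, 3 without C 2, 1 without C 3, 2 without KO 1 and 0 without KO 3. In DKO against KO the 7 focal adhesion calls became 4 without C 2, DKO 3 or KO 1 and 0 without KO 3, and the 13 basement membrane calls became 6 without C 2, 8 without C 3, 5 without KO 1 and 4 without KO 3. The 7 ligand calls became 4 without C 2, 2 without KO 1 and 3 without KO 3, and the 4 dystrophin calls became 2 without C 1 or C 2, 1 without C 3 and 0 without KO 1 or KO 3. In DKO against C, 2 ligands passed without DKO 3, as did 90 of all tested genes.

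**Figure D5:**
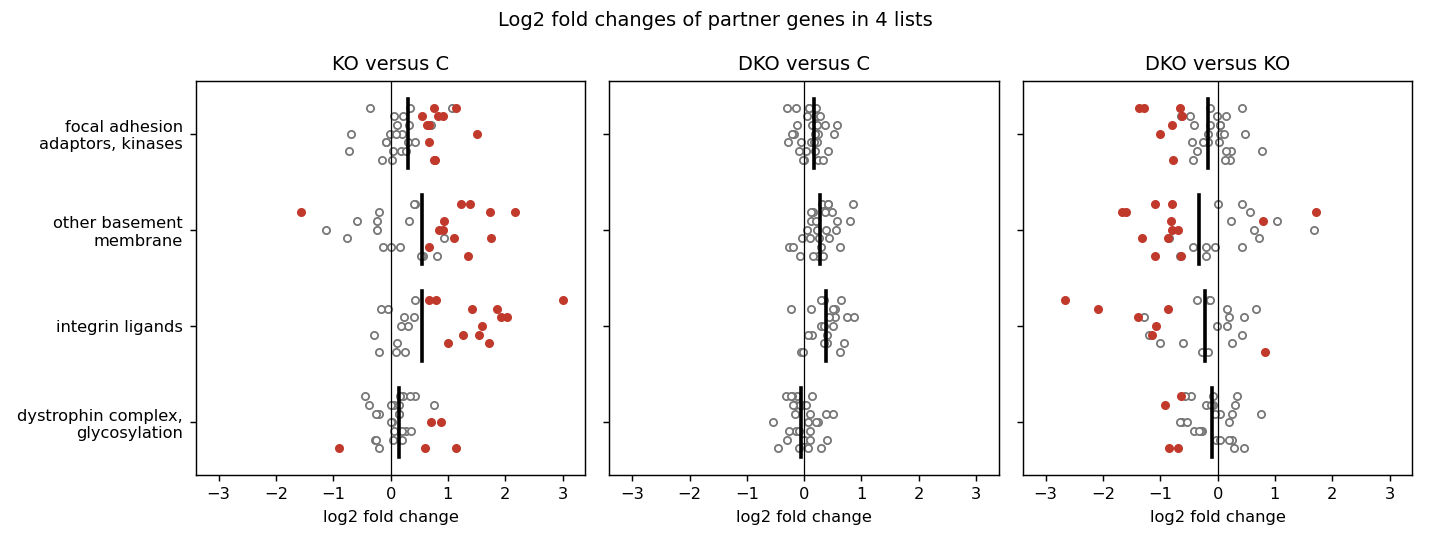
Log2 fold change (x axis) of each gene (points) in 4 lists of partner genes (rows) in KO versus C, DKO versus C and DKO versus KO. Filled points passed an adjusted p of 0.05 and bars mark list medians, which are 0.30, 0.55, 0.55 and 0.14 in KO versus C.

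Inside the cell, Vcl, the gene of vinculin, which reinforces the link from talin to actin, had 17.5, 21.9 and 18.7 in C, 42.5 and 76.4 in KO, and 27.9, 23.9 and 32.9 in DKO. It rose by 1.52 ± 0.23 in KO against C (limma, adjusted p = 0.00209), and the groups did not overlap. Flnc, the muscle filamin, had 108 to 149.7 in C, 271 and 303 in KO, and 90.4 to 166 in DKO (1.13 ± 0.24 in KO against C; limma, adjusted p = 0.0105). Flnc was not called without C 1 (limma, adjusted p = 0.0511), KO 1 (0.0528) or KO 3 (0.105). Tns3 (0.91 ± 0.20) and Kank1 (0.83 ± 0.16), which bind integrin tails and talin, rose too, but Tns3 was not called without C 1 (limma, adjusted p = 0.0520), KO 1 (0.0618) or KO 3 (0.109), nor Kank1 without KO 3 (0.0855). Between DKO and KO, the differences were -0.80 ± 0.17 for Kank2, a relative of Kank1, -1.28 ± 0.24 for Flnc and -1.0003 ± 0.23 for Vcl. None of these 3 was called without KO 3 (limma, adjusted p = 0.162, 0.0877 and 0.218), and that of Vcl was then -0.59. The smallest p of the list in DKO against C was that of Src, at 0.58 ± 0.22 (limma, adjusted p = 0.569).

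In the sheet itself, Col4a3, a collagen IV chain of specialised basement membranes, had 1.99, 2.62 and 3.06 in C, 10.96 and 10.9 in KO, and 3.33, 4.95 and 3.14 in DKO, and rose by 1.76 ± 0.22 in KO against C (limma, adjusted p = 0.000818). Col4a4, the chain it assembles with, had 8.30, 8.35 and 7.75 in C, 15.2 and 12.2 in KO, and 12.7, 16.0 and 11.1 in DKO. Here DKO stood above C along with KO, by 0.63 ± 0.17, the smallest p of the list in that comparison (limma, adjusted p = 0.390). Frem2, which anchors epithelial basement membranes, had 3.92 to 4.56 in C, 14.9 and 17.2 in KO, and 3.35 to 6.54 in DKO (1.73 ± 0.23 in KO against C; limma, adjusted p = 0.00101), and Col18a1 rose by 2.16 ± 0.26 (limma, adjusted p = 0.000650). Efemp1, a fibulin, was the exception, at 3.398, 2.68 and 3.55 in C, 0.256 and 0.607 in KO, and 3.98, 4.67 and 2.62 in DKO. It fell by 1.56 ± 0.24 in KO against C (limma, adjusted p = 0.00233) and was higher in DKO than in KO by 1.72 ± 0.24 (limma, adjusted p = 0.00167), sizes that were -0.702 and 0.80 with a pseudocount of 4 and -2.93 and 3.12 in DESeq2 on the recovered reads. Relative to KO, Col18a1, Frem2 and Col4a3 were lower in DKO by 1.68 ± 0.26, 1.60 ± 0.23 and 1.33 ± 0.22 (limma, adjusted p = 0.00277, 0.00167 and 0.00368).

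Of the integrin ligands, Ccn2, a matricellular protein bound by Itgav dimers, had 50.2, 67.1 and 39.0 in C, 193 and 179 in KO, and 52.6, 39.1 and 39.2 in DKO. It rose by 1.85 ± 0.22 in KO against C (limma, adjusted p = 0.000645) and was lower in DKO than in KO by 2.08 ± 0.22 (limma, adjusted p = 0.000303). Ccn1, its close relative, had 24.6 to 32.3 in C, 56.5 and 41.2 in KO, and 41.6, 40.3 and 48.5 in DKO, so that DKO lay above C by 0.64 ± 0.17, the smallest p of the list there (limma, adjusted p = 0.374). Thbs1, the gene of thrombospondin 1, had 3.24 to 7.203 in C, 33.2 and 16.9 in KO, and 4.35 to 13.95 in DKO. It rose by 2.03 ± 0.42 in KO against C (limma, adjusted p = 0.00904), but not without KO 1 (0.105). Postn and Col1a1 rose by 3.001 ± 0.28 and 1.93 ± 0.29 in KO against C, and in DKO against KO they were lower by 2.66 ± 0.28 and 1.39 ± 0.29, and Col3a1 by 1.14 ± 0.27. Without KO 1 or KO 3, Col1a1 (limma, adjusted p = 0.0876 and 0.0835) and Col3a1 (0.153 and 0.0815) were not called in DKO against KO. Of fibroblast genes that encode no matrix protein, Pdgfra had 19.0 to 23.7 in C, 17.5 and 16.2 in KO, and 20.4 to 32.9 in DKO. Tcf21 had 3.74 to 7.62, 12.4 and 8.06, and 5.21 to 11.7 in the same order, and Gsn had 605 to 1135, 743 and 561, and 782 to 2201. None of these 3 passed, with KO below C for Pdgfra and above C for Tcf21. The 8 fibroblast genes summed to 952 to 1677 in C, 1195 and 1587 in KO, and 1154 to 3065 in DKO. Of these 8, Col1a1 and Mfap5 passed in KO against C, and their part in the ligand values was not tested.

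Around dystroglycan, Sntb2, a syntrophin that binds dystrophin, had 7.81 to 10.46 in C, 21.0 and 21.9 in KO, and 7.92 to 14.9 in DKO, and rose by 1.15 ± 0.23 in KO against C (limma, adjusted p = 0.00762). Sgca, the alpha sarcoglycan of striated muscle, had 125, 137 and 127 in C, 59.4 and 79.2 in KO, and 99.5, 70.1 and 121 in DKO, and fell by 0.90 ± 0.22 in KO against C (limma, adjusted p = 0.0185). Neither was called without KO 3 (limma, adjusted p = 0.0804 and 0.0572) or without KO 1 (0.0514 and 0.167). Without C 1, C 2 or C 3, Sgca was not called either (limma, adjusted p = 0.0559, 0.0656 and 0.0569). Sgca was lowest in both KO libraries and DKO 2, where the summed cardiomyocyte signal was lowest too (36398, 40971 and 36173). The part of cardiomyocyte or skeletal muscle RNA in the Sgca values was not tested.

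Lower in DKO than in KO were Dtna, the gene of alpha-dystrobrevin, Sntb2, and Pomgnt1, an enzyme of the sugar chain by which dystroglycan holds laminin, by 0.92 ± 0.24, 0.85 ± 0.23 and 0.63 ± 0.18. Each of these 3 was lost without KO 1 (limma, adjusted p = 0.124, 0.137 and 0.116) or KO 3 (0.192, 0.199 and 0.279). Pomgnt1 was also lost without C 1 (limma, adjusted p = 0.0719), C 2 (0.0757), C 3 (0.0715) or DKO 1 (0.0512), and Sntb2 without C 3 (0.0529) or DKO 3 (0.0548).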

How the data were processed

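Poly(A) RNA of ventricular tissue was sequenced on an Illumina platform, per the labels' protocols. Cutadapt, RSEM 1.3.1, limma and GRCm38 appear in the submitters' processing notes, and neither annotation nor strandedness is given in the sources used here. The authors deposited 1 table of normalised signal for 13677 genes in 8 libraries. Read from the values, each is a number of reads plus 0.5 over an effective library size, and 100% gave whole reads within a tolerance of 0.001 reads. RSEM can split reads between paralogs and overlapping genes. Chi-square per gene between replicates was 13.7 to 256, above counting noise, so each library counted as 1.

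Genes with a signal of at least 1 in at least 2 libraries (13544, all 43 included) were tested on log2(signal + 1) with limma 3.58.1 in R 4.3.3, in a model of 3 group means over 8 libraries (5 residual degrees of freedom; variance trended on intensity). The scale understates changes of low genes. The recovered reads were tested with edgeR 4.0.16 and DESeq2 1.42.0 as alternatives. Reads of 13244 genes were also simulated, with a small part of the genes changed in KO and none in DKO. All changed genes had a mean signal of at least 1 in C. In KO versus C, 48% of changes of 1 and 91% of changes of 2 on the log2 scale were recovered, and 9 unchanged genes were called. In the data 13.9% of genes were called, so recovery there can differ, and genes as low as Itga2 and Itgax in C were not covered. Coordinates and lengths come from GENCODE M21 (GRCm38; 13671 identifiers matched).

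The genes, the 4 partner lists and the marker lists were chosen with earlier results of these data known. Values in every library are given for each gene of the set past the threshold and for the highest per length in each role; from each partner list the text names up to 4 genes per comparison, those called with the largest change or, with no call, the smallest p. Pdgfra, Tcf21, Gsn, Pf4, Tnni3, Krt19, Ppbp and Wt1 are marker genes named after their values were seen. Lama1, Lamc3, Itgad and Itgae were not analysed here, and some genes these rules select are counted but not reported here by name.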

Additional observations from a re-analysis of the deposited data

How the results depend on the processing

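Of the settings other than leaving out a library, fitting only the 2 groups compared moved most counts: of the 43 genes it called 20 in KO versus C (13 over all 8 libraries) and 5 in DKO versus KO (10), and in DKO versus KO it called 1 focal adhesion gene (7), 6 basement membrane genes (13), 3 ligands (7) and 0 dystrophin-complex genes (4). Table-wide it called 3606 genes in KO versus C and 730 in DKO versus KO, against 1883 and 1599. DESeq2 called 11 ligands in DKO versus KO, and 69 genes against 21 table-wide in DKO versus C. With the trend on length and GC content removed, 7 focal adhesion genes passed in KO versus C (11). The 5 dystrophin-complex calls of KO versus C became 3 with median centring, with the length and GC trend removed and with the replicate block. Median centring changed the table-wide split of KO versus C to 832 higher and 1089 lower, from 934 and 949. The cause of these shifts was not tested.

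With the replicate number as a block, 12 of the 43 genes passed in KO versus C, 9 in DKO versus KO and 0 in DKO versus C, and 1 dystrophin-complex gene in DKO versus KO. Deviations from the group means correlated at -0.274 to 0.218 for libraries with the same number and at -0.363 to 0.212 for those with different numbers. In groups this small the deviations within a group are tied to each other, so these values cannot exclude pairing. The main model took no pairs.

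Leaving out 1 library at a time gave 3 to 16 of the 43 genes in KO versus C, 2 to 10 in DKO versus KO and 0 in DKO versus C. For the lists it gave 1 to 14 focal adhesion, 5 to 15 basement membrane, 6 to 12 ligand and 0 to 7 dystrophin-complex genes in KO versus C. In DKO versus KO it gave 0 to 10, 4 to 13, 2 to 9 and 0 to 6, and in DKO versus C 0 to 2 ligands. A lone KO library was assumed to vary like the other groups.

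Single-gene values were followed for genes of the set where the main test called them, and for Lama5 and Dag1 in KO versus C. They were also followed for partner genes picked by a called large change or, with no call, the smallest p. Genes of the set that were never called, such as Lama2 and Itga6, were left out. Of these 1159 values under the alternatives, 989 kept their side of the threshold, 157 lost it and 13 gained it. None changed sign, which this choice made likely, so the stability of small differences was not tested. Outside leaving out libraries, Itga2 (adjusted p 0.0529 to 0.101), Itgbl1 (0.0507 to 0.0629), Lamb1 (0.0521 and 0.0860) and Itgax (0.0619 and 0.0747) lost their limma calls in KO versus C under some setting, and Lama5, Dag1, Itga5, Itgb1 and Itgb1bp2 lost theirs in DKO versus KO (0.05005 to 0.121). In KO versus C, Lama5 passed in limma with median centring, with the length and GC trend removed, with the replicate block and with only C and KO fitted (0.00416 to 0.0457), and Dag1 with quantile normalization and with only C and KO fitted (0.0164 and 0.0122). DESeq2 called both there (0.00676 and 0.0192).

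Per length of the longest coding sequence in place of the transcript, a choice made after seeing the data, Itgb1 took 58.7%, 63.0% and 56.3% in C, KO and DKO, and Itga9 took 7.36%, 18.6% and 6.31%. Genes with a signal near that of 3 reads, such as Itga2 and Itgax, are limited by depth.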
